A study of Mus musculus with 37 samples.

Results

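The series lists 22367 open reading frames (ORFs) that ribosome footprints mark as translated in mouse dendritic cells, and 393 of them (1.76%) lie on assembled transcripts that carry no gene name. These ORFs were picked by name alone: an ORF counted as unnamed where its transcript label starts with TCONS_, CUFF, Linc_, ANTI or NEW, or contains CUFF followed by a dot. ORFs that share a transcript label, a chromosome and a strand form a family. The unnamed ORFs fall into 151 of 10418 families (1.45%), and the other 21974 ORFs lie in 10267 named families. None of the 151 labels matched a symbol in the RefSeq gene table, while 10232 of the named families did. The first result follows from the name rule, since labels of this form are not gene symbols. It does not show whether RefSeq has a gene at these places.

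The study sequenced the short pieces of RNA that ribosomes protect in dendritic cells grown from bone marrow of C57BL/6J mice aged 6 to 8 weeks. Its 37 libraries fall into 28 groups by ribosome inhibitor, stimulation and time, and 9 of these groups hold more than 1 library. Cycloheximide, which halts elongating ribosomes, was given at 100 ug/mL for 1 min to 2 naive libraries, to 16 libraries stimulated with LPS (100 ng/mL, at 8 times from 0.5 to 12 h) and to 8 mock-treated libraries. The LPS series was repeated in 8 libraries without an inhibitor beside 1 naive library, and single libraries that mixed LPS times received harringtonine (1 ug/mL, 5 min) or lactimidomycin (50 ug/mL, 30 min), both of which hold ribosomes at start codons. All libraries share the genotype and the culture, and LPS is the bacterial lipopolysaccharide that activates these cells through Toll-like receptor 4.

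A single ORF list covers all libraries together. It gives each ORF a position in the mm9 mouse genome, the exons of its transcript and a score from 500 to 991 that the authors assigned, but no value per library. Levels, changes with LPS and the spread between replicates were therefore not analysed for these ORFs, and the values below are descriptions of 1 list with no test. Of the cell type markers looked up among the named families, 13 of 14 dendritic markers had a listed ORF, as did 6 of 6 symbols for macrophage and monocyte markers (Adgre1 and Emr1 name 1 gene), 7 of 7 neutrophil and 3 of 3 fibroblast markers, 2 of 3 mast cell, 1 of 3 B cell and 0 of 4 T cell markers. The part of cells other than dendritic cells in the list of unnamed ORFs was not tested.

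A transcript assembled from RNA-seq reads without matching a known gene may be a long noncoding RNA, a gene missing from the annotation, or a piece of a known gene. Ribosomes scan from the 5′ end of an RNA, so short ORFs near that end can be translated on transcripts that are thought of as noncoding. Upstream ORFs, which precede the longest ORF of an mRNA, often lower the translation of that ORF, and a few short ORFs encode working micropeptides.

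Most families carry names given by transcript assembly with a TCONS_ label: 115 families with 324 ORFs, or 82.4% of the unnamed ORFs. Names that start with CUFF account for 28 families and 51 ORFs (13.0%). Labels that start with Linc belong to 5 families with 8 ORFs, and those with ANTI to 3 families with 10 ORFs. The 393 ORFs have 375 different starts and 338 different stops, so some of them are versions of each other and not separate observations. They lie on 203 different transcripts, and 112 of the 151 families have a single listed transcript.

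The unnamed ORFs were short. Their median length was 31 codons, with a 95% interval for the median of 27 to 36 codons (order statistics, counting error only), the middle of the distribution ran from 13 to 60 codons, and the longest had 4306 codons. The median over named ORFs was 333 codons. Of the unnamed ORFs, 344 (87.5%; exact Clopper-Pearson 95% interval 83.9 to 90.6%) had fewer than 100 codons, against 25.9% of the named ones. With the longest ORF of each family taken as its main ORF, the median was 54 codons (45 to 59) in the unnamed families and 440 codons in the named families. Main ORFs under 100 codons made up 121 of 151 unnamed families (80.1%) and 4.27% of named ones. At the other end, 23 unnamed families (15.2%) had a main ORF of 200 codons or more, against 83.9% of named families.

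**Figure D1:**
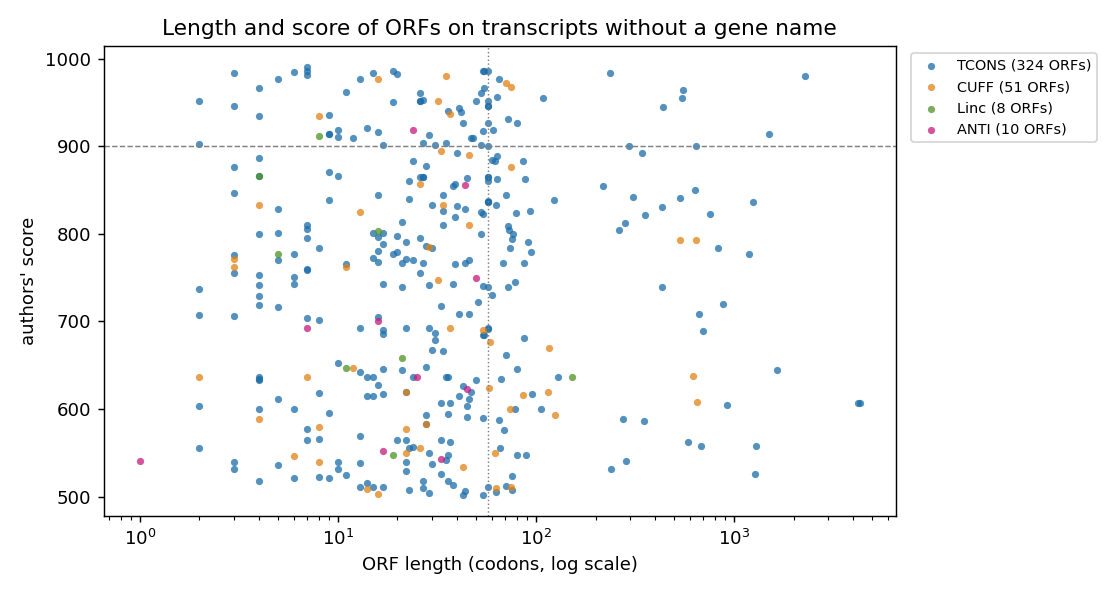
Each point is 1 of the 393 unnamed ORFs, placed by its length in codons (log axis) and by the authors' score, and coloured by the start of its transcript label. The dashed line marks a score of 900 and the dotted line 57 codons; short and long ORFs spread over nearly the whole range of scores, from 502 to 990.

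Scores were lower than in named families, and the gap depended on the ORFs compared. The median score was 759 (729 to 777) over unnamed ORFs and 848 over named ORFs. Main ORFs had medians of 771 (742 to 804) and 927. A score of 900 or more was given to 76 of the 393 unnamed ORFs (19.3%; 15.6 to 23.6%) and to 41.6% of the named ones. Among ORFs of fewer than 100 codons the medians lay closer together, and among longer ones they lay farther apart. From 1 to 9 codons the 80 unnamed ORFs had a median score of 754 beside 770 in named ORFs, and from 10 to 29 codons 112 unnamed ORFs had 740.5 beside 743. From 30 to 99 codons the medians were 768.5 (722 to 819) over 152 unnamed ORFs and 743 (727 to 758) over named ORFs of any class, so their intervals overlap, and 20.4% and 23.1% reached 900. The unnamed ORFs of 100 to 499 codons, 23 in number, had a median of 804 beside 906, and the 26 of at least 500 codons had 748.5 beside 878.

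Length was not the only difference among main ORFs. The 82 unnamed main ORFs of 30 to 99 codons had a median score of 787.5, while the 367 named main ORFs of that length had 941. In that class of named families stand known small proteins such as Tmsb4x, the actin-binding thymosin beta 4 (44 codons, score 991), Ost4, a subunit of the oligosaccharyltransferase (37 codons, 968), and Mtln, the mitochondrial micropeptide mitoregulin (56 codons, 977). In a list of 25 symbols of small-protein genes, 19 had a listed ORF. These are counts of symbols and not of genes, since for example Mtln and 1500011K16Rik name the same family. Most main ORFs of 30 to 99 codons from that list scored 952 or more. The exceptions were Pigbos1 (57 codons, 836), Smim15 (79 codons, 822) and 1810058I24Rik (75 codons, 517). The upstream ORFs of named genes were nearer to the unnamed ORFs, with a median of 16 codons and a median score of 772.

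**Figure D2:**
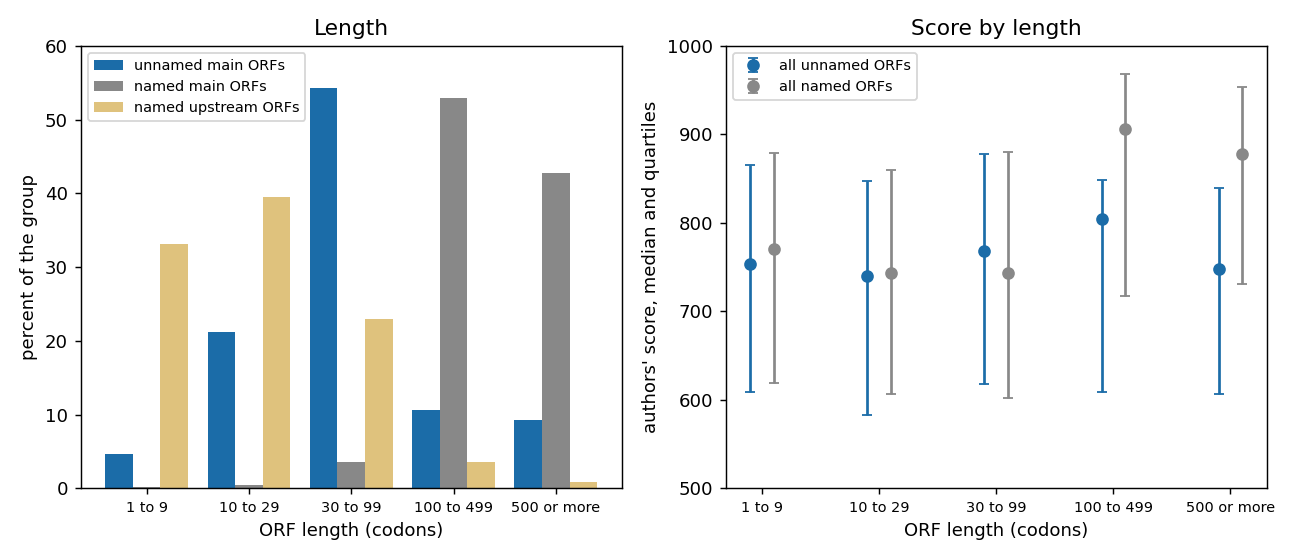
The left panel gives the percent of main ORFs of unnamed families, main ORFs of named families and upstream ORFs of named families in 5 classes of length; the right panel gives the median score (points) and quartiles (bars) of all unnamed and all named ORFs in the same classes. Unnamed main ORFs peak at 30 to 99 codons (54.3%), and the median scores of unnamed and named ORFs separate from 100 codons upward.

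Long noncoding RNAs that do have a gene name offer a second point of reference. Of 26 such genes looked up, 9 had a listed ORF, 17 ORFs in all, with a median of 37 codons and a median score of 839, and 16 of the 17 were under 100 codons. Gas5, a host of small nucleolar RNAs with a terminal oligopyrimidine start, had 1 ORF of 23 codons with a score of 990. Snhg1, another such host gene, had 1 ORF of 40 codons (982), and Neat1, the scaffold of paraspeckles, had 6 ORFs of 10 to 79 codons. Xist, the RNA that silences an X chromosome, had 1 ORF of 40 codons with a score of 511. The unnamed ORFs are close to these in length and lower in median score. This point of reference rests on few genes, since 6 of its 17 ORFs belong to Neat1 and 4 to Tug1. The difference in score was not tested.

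The transcripts themselves differed from those of named genes in their exons. A single-exon transcript carried the main ORF of 51 unnamed families (33.8%; 26.3 to 41.9%) and of 1.75% of named families, and the median number of exons was 2 beside 9. Single-exon unnamed transcripts were the longer ones, with a median of 3610 bases, against 2400 bases for the 65 with 2 or 3 exons and 2619 bases for the 35 with 4 or more. Their main ORFs had medians of 55, 44 and 75 codons in that order, and the median scores were 767, 772 and 785. So the number of exons went with little difference in score among the unnamed main ORFs.

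The main ORF filled a small part of its transcript. In unnamed families a median of 6.82% of the transcript was coding, against 49.3% in named families, although the transcripts were of similar length (medians of 2691 and 3082 bases). The stretch before the start codon, the leader, had a median of 382 bases beside 185 in named families, and the stretch after the stop 1574 beside 1111 bases. On spliced transcripts, the main ORF crossed an exon junction in 52 of 100 unnamed families, against 95.5% of named ones. A stop codon more than 55 bases before the last junction, the arrangement that can expose an mRNA to nonsense-mediated decay, was found for 34 of those 100 main ORFs (34.0%; 24.8 to 44.2%) and for 6.02% of named main ORFs. Decay itself was not measured.

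More than 1 ORF was listed for 95 of the 151 unnamed families (62.9%), and for 56.2% of named families. Beside the 151 main ORFs there were 104 upstream ORFs (26.5% of unnamed ORFs, against 12.5% of named ORFs), 57 downstream ORFs (14.5%, against 1.44%), 35 that share the main stop but start elsewhere in frame (8.91%, against 15.3%), 16 in-frame isoforms, 12 that run over the main start, 12 inside the span of the main ORF and 6 that run over the main stop. The upstream ORFs had a median of 14.5 codons and a median score of 785, beside 771 over all unnamed main ORFs. Downstream ORFs had a median of 19 codons and a lower median score of 716. A downstream ORF was present in 30 unnamed families (19.9%) and in 1.65% of named ones. Upstream ORFs, or ORFs over the main start, were present in 57 (37.7%) and in 19.9%.

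Calling the longest ORF the main one is a weaker guide here than in named families. It also had the top score of its family in 44 of 95 unnamed families with more than 1 ORF (46.3%; 36.0 to 56.8%), against 65.2% of named families. In the other 51 unnamed families the longest ORF had a median of 59 codons and a median score of 658, and the top-scoring ORF had 16 codons and 914. That top ORF lay upstream of the main start or over it in 24 of the 51 families (47.1%), in frame with the main ORF in 14 (27.5%), downstream in 9 and within or over the stop in 4. By selection, the top ORF of such families scores higher and is not longer. The 2007 named families of that kind had medians of 470 codons and 676 for the longest ORF. Their top-scoring ORF had 133 codons and 907, so the gap in score was not particular to unnamed families. In these named families the share upstream or over the start was 36.0%, and the share in frame was 53.0%.

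The highest score among unnamed ORFs, 990, went to a 7-codon ORF of TCONS_00048192 (mm9 chromosome 19, 12612890 to 12612913, minus strand), which lies upstream of a 554-codon main ORF with a score of 964. A score of 986 was given to 5 ORFs. Among these, the 54-codon main ORF of TCONS_00101443 spans a junction on chromosome X (8906896 to 8909583, minus strand), and the 55-codon main ORF of TCONS_00013520 lies on chromosome 11 (83345991 to 83346158, plus strand). The 57-codon ORF of TCONS_00045080 runs over the start of an 80-codon main ORF that itself scored 646. A 19-codon ORF of TCONS_00048329 and a 7-codon ORF of TCONS_00037128 complete the 5. Next came a 6-codon ORF of TCONS_00078548 (985), a 3-codon ORF of TCONS_00022504 (984), and the 236-codon ORF of TCONS_00046847 and a 15-codon ORF of TCONS_00065818 (983 each). Of these 10 ORFs, 3 are main ORFs and all but 1 have fewer than 100 codons.

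The other name types reached lower maxima. The best CUFF ORF was the 35-codon main ORF of CUFF.14791.1 with a score of 980 (chromosome 10, 42767720 to 42768824, plus strand). A 24-codon ORF of ANTI|Linc_lev1|NEW-CUFF.63844.1 had 918, and an 8-codon upstream ORF of Linc_lev1|NEW-CUFF.110901.1 had 912. The shortest unnamed ORF was a single codon before its stop, on ANTI|Linc_lev2|NEW-CUFF.124811.2, with a score of 541. ORFs of 2 codons ranged in score from 555 in TCONS_00079619 through 707 in TCONS_00048855 and 737 in TCONS_00018736 to 902 in TCONS_00013520 and 951 in TCONS_00065818. Very short ORFs thus covered almost the same range of scores as long ones.

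Some families held whole series of short ORFs. TCONS_00078548, on the minus strand of chromosome 6, had 19 ORFs of 3 to 65 codons. Its 65-codon main ORF scored 977, a 6-codon ORF upstream of it 985 and a 26-codon ORF farther upstream 961, while the main start was also used by in-frame isoforms of 35 codons (904), 29 codons (693) and 14 codons (637) on other transcripts. TCONS_00065818 on chromosome 4 had 15 ORFs, of which 12 lie upstream of its 65-codon main ORF. That main ORF scored only 587, and upstream ORFs of 15, 4, 2 and 43 codons scored 983, 966, 951 and 927. The leaders before these 4 ORFs had 175, 234, 115 and 1895 bases, and other ORFs near the 5′ end scored less, such as 706 and 633 after leaders of 211 and 265 bases. The longest ORF of the family stood among the lowest in score.

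TCONS_00048329 on chromosome 19 had 7 ORFs, all of 4 to 22 codons. Its longest, 22 codons, had a score of 529, and 3 upstream ORFs of 19, 20 and 13 codons had 986, 982 and 977. TCONS_00037128 on chromosome 16 had 8 ORFs in 2 clusters. Near the 5′ end lay a 54-codon main ORF (917), a 7-codon ORF over its start (986) and a 5-codon ORF upstream (977), and the downstream ORFs of 5 to 23 codons had scores of 618 to 840. TCONS_00018736 had 9 ORFs of 2 to 91 codons, and its best score, 939, belonged to a 42-codon ORF downstream of the main one (791). TCONS_00045080, TCONS_00048780 and CUFF.120595.1 had 6 ORFs each, and are named out of 9 unnamed families with 6 because ties were ordered by score. Families with at least 5 ORFs made up 19 of the 151 (12.6%), against 7.02% of named families.

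**Figure D3:**
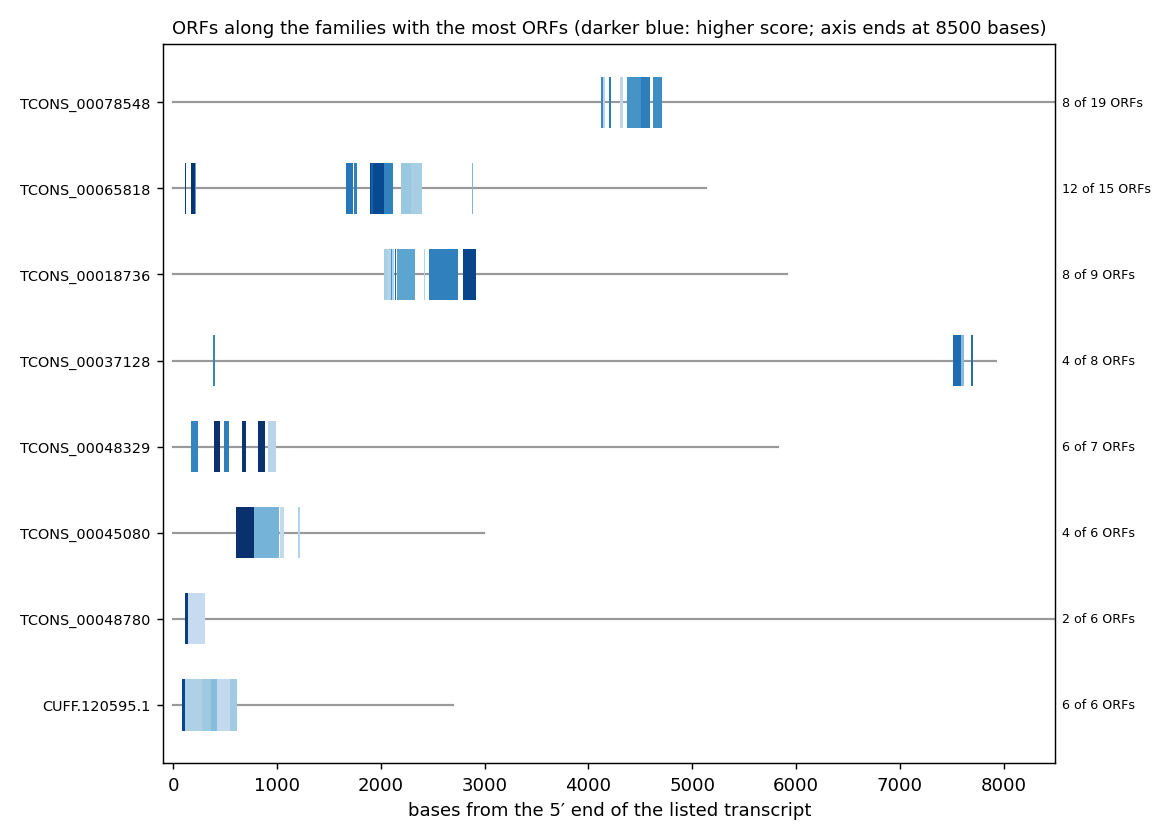
Each row is the listed transcript that carries most ORFs of 1 of the 8 unnamed families with the most ORFs (3 of them out of 9 tied at 6 ORFs, taken by score), drawn from its 5′ end in spliced bases, with the ORFs as boxes and darker blue for a higher score; the label at the right says how many of the family's ORFs lie on it. The axis ends at 8500 bases, so 2 transcripts run past it, and the ORFs of most families crowd into a short stretch of the transcript.

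A 57-codon length recurred. This length was singled out after the values were seen. It was found in 16 ORFs of 12 unnamed families (4.07% of unnamed ORFs), and in 34 named ORFs (0.155%). Part of that contrast comes from length, since named ORFs are mostly longer. From 30 to 99 codons there were 152 unnamed and 2293 named ORFs. The neighbouring lengths of 56 and 58 codons had 0 and 1 unnamed ORF, and 28 and 34 named ORFs. A transcript with a single exon carried it in 8 of the 12 families. The next most spread length above 22 codons was 54 codons, in 8 ORFs of 8 families.

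Within 4 of these single-exon families the 57-codon ORF occurred 2 times, several kb apart. In TCONS_00018142 on chromosome 11 the starts lay 4155 bases apart, after leaders of 296 and 4451 bases, with scores of 865 and 900. In TCONS_00025920 on chromosome 13 they lay 4236 bases apart, with scores of 946 and 927. TCONS_00048798 on chromosome 19 had them 4455 bases apart, with a score of 836 for both and a first leader of 296 bases, as in TCONS_00018142. TCONS_00079905 on chromosome 6 had them 4403 bases apart, with scores of 860 and 865. Between the copies lay, among others, an ORF of 27 codons in the first pair of families (865 in each) and of 39 codons in the latter pair (819 and 857).

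The remaining 8 families had 1 ORF of this length each. TCONS_00046416 and TCONS_00046417 among them are single-exon neighbours, 1689 bases apart on the same strand, and their 57-codon ORFs start 4508 bases apart, near the distances within the 4 families above. Whether they are pieces of 1 transcript was not tested, and if so the families with this length would number 1 fewer. Scores were 952 in TCONS_00079619, 946 in TCONS_00097711, 986 in TCONS_00045080, 837 in TCONS_00040445, 739 in TCONS_00091444, 693 in TCONS_00046417, 691 in TCONS_00018736 and 511 in TCONS_00046416. Over all 16, 6 scored 900 or more and 12 scored 800 or more. Whether these ORFs share a sequence, as copies of a repeated element would, was not tested, since no genome of the list's build was used here.

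**Figure D4:**
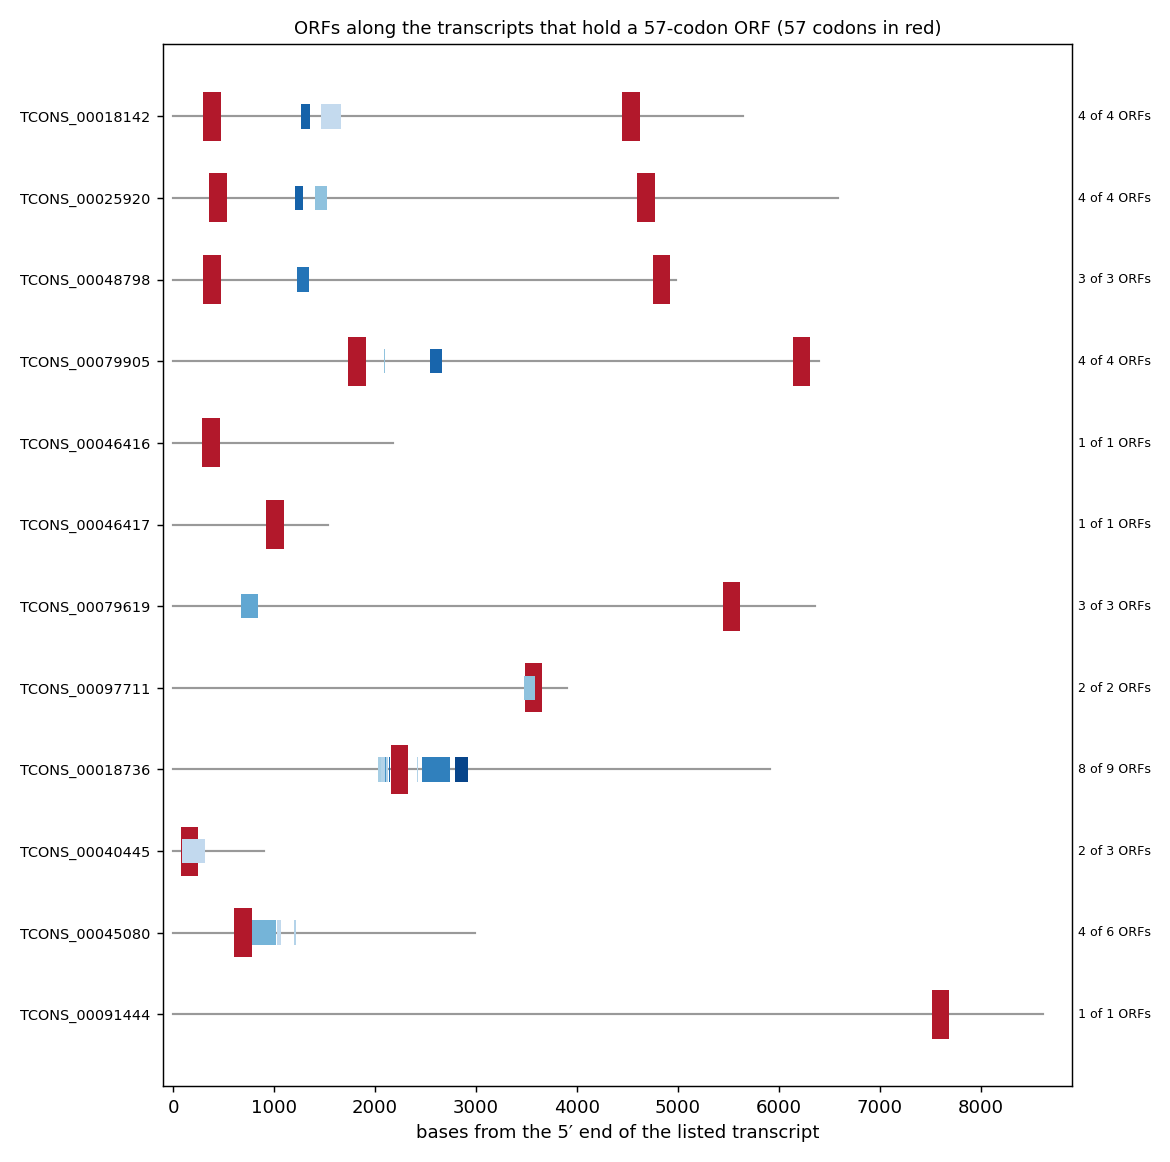
Each row is a listed transcript of 1 of the 12 families with a 57-codon ORF, drawn from its 5′ end in spliced bases, with 57-codon ORFs in red and other ORFs in blue (smaller boxes, darker for a higher score). In the top 4 rows the red boxes stand 4155 to 4455 bases apart, with another ORF between them.

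Of the 23 families with a main ORF of 200 codons or more, 5 had that ORF on a single-exon transcript, and the scores of the main ORFs ran from 558 to 983. The flanks are the nearest named families on each side whose symbol RefSeq places on the same chromosome, so a nearer family without such a symbol was passed over. The RefSeq table (GRCm38.p6, used only for the order of genes) names the protein-coding genes that lie between the flanks. A listed gene that the unnamed family overlaps can be among them, as Brip1 is for TCONS_00013609. The identity of an unnamed transcript with a gene between its flanks was not tested. TCONS_00046847 on chromosome 19 (11453243 to 11467280) had a single ORF of 236 codons over 6 coding exons and a score of 983. It lies between Ms4a7 and Ms4a4c, members of the MS4A family of membrane proteins, and RefSeq has 1 coding gene there, Ms4a4a. TCONS_00072456, with 309 codons over several exons (842), lies between Fam114a1 and Klhl5, where RefSeq has Tmem156. TCONS_00041306 on chromosome 17, with 545 codons (955), lies between Lsm2 and Vars, where RefSeq has D17H6S56E-5.

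The longest ORFs of all belonged to TCONS_00051319 on chromosome 2, where ORFs of 4306 and 4226 codons share a start and scored 607 each. The flanking named families are Haus2 and Ttbk2, and RefSeq has Stard9, which encodes a very large kinesin, and Cdan1 between them. TCONS_00085712 on chromosome 7 had a 2290-codon ORF in 1 coding exon with a score of 980. Its left flank is Gvin1_2, of the family of very large interferon-inducible GTPases, and Gm1966 is 1 of 30 coding genes before the right flank, Ppfibp2. TCONS_00020678 on chromosome 12 had 6 ORFs of 1197 to 1640 codons between Pld4 and Cdca4, where RefSeq has Ahnak2 and Clba1. Its 1640-codon main ORF scored 644, and a 1500-codon ORF downstream of it scored 914. The tenth longest ORF, 918 codons in TCONS_00082135, scored 605.

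The main ORFs of 500 codons or more, 14 in number, had a median score of 698.5, and 3 of them (21.4%) reached 900, against 19.9% of all unnamed main ORFs. RefSeq listed no coding gene between the flanks of 54 of the 147 unnamed families with such flanks on both sides (36.7%). That share was 49 of 119 (41.2%) where the main ORF had fewer than 100 codons and 5 of 22 (22.7%) where it had 200 or more. TCONS_00048192, which holds the 554-codon ORF beside the top-scoring 7-codon ORF, is among those 5, between Dtx4 and Fam111a.

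Most unnamed families stood apart from the listed transcripts of named genes. In 104 of 151 (68.9%) the nearest named transcript was more than 5 kb away, against 55.1% of named families measured in the same way against other named families. In 24 (15.9%, against 31.5%) it lay within 5 kb without overlap. A further 10 lay within or over the span of a named transcript with no exon in common, 6 on the same strand (3.97%) and 4 on the opposite one (2.65%). Named families were less often placed so, with 1.87% within or over such a span on either strand. Another 12 overlapped exons on the opposite strand (7.95%, interval 4.17 to 13.5%, against 11.5% of named families). No unnamed family shared exon bases with a named transcript on the same strand (0 of 151, which allows up to 2.41%), and none of the 393 ORFs shared in-frame codons with a named ORF. The 10267 named families did not share exon bases on the same strand with each other either, so the list as a whole has this property.

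**Figure D5:**
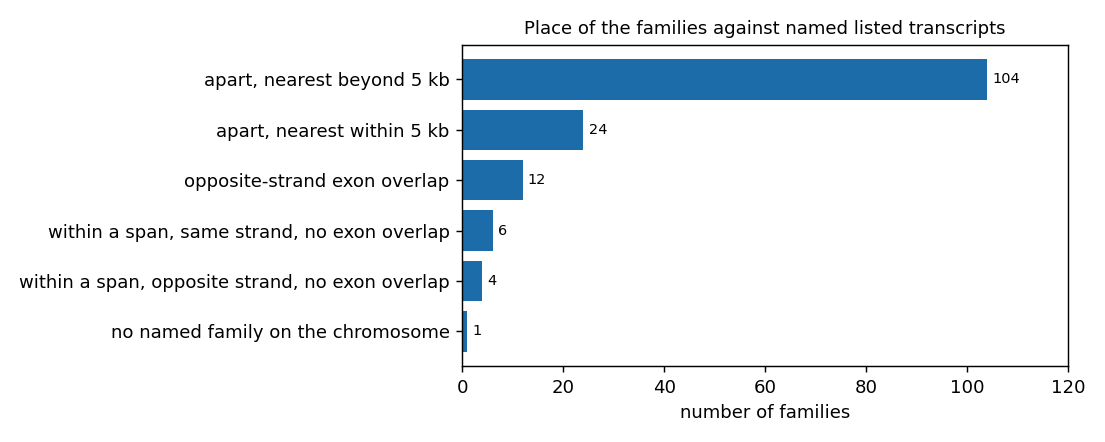
The bars count the 151 unnamed families by their place against the listed transcripts of named genes. The largest class, 104 families, lies more than 5 kb from any of them, and 12 families overlap exons on the opposite strand.

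Among the 24 families that lay apart but within 5 kb, 11 had a start facing away from that of the nearest named gene, on the opposite strand. They made up 7.28% of unnamed families, against 10.3% of named families. Families that overlap a named transcript were left out of this count, even where starts face apart. An example is TCONS_00090005, which lies 130 bases from Trappc5. In the 11 counted families, 7 distances were under 1 kb: 70 bases for Naa38, 108 for Atad2b, 143 for Txnrd1, 259 for Hhex, 272 for Vars, 334 for Oasl1 and 566 for Irg1. Txnrd1 encodes a thioredoxin reductase and Hhex a homeobox factor of blood cell development. Irg1, also called Acod1, makes itaconate in activated macrophages. TCONS_00029244 beside it had an 87-codon main ORF with a score of 681 and a 27-codon upstream ORF with 953. Oasl1 belongs to the interferon-induced oligoadenylate synthetase-like proteins. Its neighbour TCONS_00073228 had a 38-codon main ORF (743) and a 10-codon upstream ORF (910). The other 4 distances ran from 2301 to 3622 bases, to Irf2bp1, Klhdc4, Rbm12b1 and Ninj1.

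Further unnamed transcripts lay near a gene of the immune system or overlapped its span, and these were picked for that after the list was read. TCONS_00075526 ended 1655 bases before Oasl2 and had 6 ORFs of 5 to 51 codons, none scoring above 722. CUFF.117161.1 began 584 bases after Alox5ap, which encodes the protein that presents arachidonate to 5-lipoxygenase, and its main ORF, 71 codons, scored 972. TCONS_00025897 ended 199 bases before Syk, a tyrosine kinase of immune receptors, with a 22-codon ORF (565). TCONS_00013481, with a 38-codon ORF (score 854), overlapped the span of Slfn8 on the other strand with no exon in common. Whether the first 3, on the same strand as their neighbours, are extended ends of the genes beside them was not tested.

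The largest overlap on opposite strands was with Ccl5, the chemokine RANTES that LPS induces in dendritic cells. TCONS_00013520 had 4220 exon bases opposite the listed Ccl5 transcript, 84.2% of its length. All 5 of its ORFs lie opposite the leader of that Ccl5 transcript and none opposite its coding part. The listed leader is unusually long, 5324 bases, beside a median of 185 bases over named main ORFs. Whether most Ccl5 RNA carries a leader of this length was not tested. They had 55, 54, 30, 24 and 2 codons and scores of 986, 823, 537, 770 and 902, while the 91-codon main ORF of Ccl5 scored 991. The score of the 55-codon ORF is thus close to that of Ccl5 itself. High scores are common, with 57.2% of named main ORFs at 900 or more, and levels of translation were not compared. The list has no value per library, so whether both are translated at the same times was not analysed here.

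Smaller overlaps followed. TCONS_00051319 had 3257 exon bases opposite Cdan1, which encodes codanin, and none of its coding bases was among them. CUFF.62674.2 lay opposite Scaf8 over its whole length, 1815 bases, with ORFs of 58 codons (624) and 26 codons (857) opposite the Scaf8 leader. That listed leader is long too, 4963 bases. TCONS_00090005 had 1789 bases opposite the part of 1810033B17Rik after its stop codon, with ORFs of 61 codons (918) and 50 codons (633). TCONS_00029036 had 1291 bases opposite Entpd4, and CUFF.100727.1 had 1082 bases opposite the leader of Coro2a. TCONS_00083850 had 635 opposite the leader of Tnfrsf22, which has 11317 bases in the list. The overlaps of TCONS_00050943 with Slc39a13 and of TCONS_00053331 with Lhx2, a homeobox gene, had 292 and 110 bases.

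Coding against coding was rare. Of the 393 ORFs, 18 in 10 families had coding bases opposite exons of a named transcript, and 3 in 2 families had them opposite coding bases. The 50-codon ORF of ANTI|Linc_lev1-CUFF.136044.1 (750) had 50 of its 153 coding bases opposite the 233-codon ORF of Rab20, a small GTPase of phagosomes. ORFs of 24 and 45 codons on ANTI|Linc_lev1|NEW-CUFF.63844.1 (918 and 623) each had 11 bases opposite short ORFs of the zinc finger gene Zfp51.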

How the data were processed

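Ribosome footprints were sequenced in 37 libraries of mouse dendritic cells, and 1 ORF list for all libraries was used. Bowtie2, TopHat and mm9 are named in the submitters' processing notes, without role or version; the tool that called ORFs and its settings are not given in the sources used. The authors deposited 1 line per ORF with a score, a whole number whose scale is not stated; it is used only to describe and rank ORFs within the list. No line scores under 500.

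The members and gene lists were chosen with earlier results of these data known. ORFs named in the text are the 10 with the highest score, the 10 longest, the 5 shortest, the best of each name type, the 8 families richest in ORFs and the 10 with most exon bases opposite a named transcript, plus listed genes; others are said to have been chosen later or belong to a class counted in full. Families were split by label, chromosome and strand, and the longest ORF was called main. Upstream, downstream and other classes were set by position against the main ORF. Overlap meant at least 1 exon base. Positions are 1-based in mm9. Shares carry exact Clopper-Pearson 95% intervals and medians order-statistic intervals, which cover counting error only. Families are not replicates, so no test was made. Classes and overlaps were tested on simulated transcripts: 2150 of 2150 ORFs and 150 of 150 overlaps came out right. The simulated families had 1 transcript each, no in-frame isoforms and no overlap on the same strand, so those cases were not tested. Python 3.11.15, NumPy 2.4.6, SciPy 1.17.1 and matplotlib 3.10.9 were used. Alternatives changed the score and length filters, the name rule, the main ORF, the family, the stop codon rule and the overlap.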

Additional observations from a re-analysis of the deposited data

How the results depend on the processing

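Of 96 values, 12 results under 8 alternatives each, 76 moved by less than the set limits (1.5 times for a count) and 20 by more. Within those limits the number of families was still 203 with each transcript on its own and 112 with at least 30 codons, against 151. Many of the 76 values could not move, so their number is no measure of robustness. The narrower name rule kept every ORF, and the overlap setting could change only overlap shares. Results of 0% stay at 0% when ORFs are removed. With a score of at least 700, 231 ORFs were left, median scores were 840 (all) and 841 (main), 32.9% scored 900 or more and 44.6% of families had more than 1 ORF. With a score of at least 900, 76 ORFs in 58 families were left, median scores were 946 and 944.5, 100% reached 900 by construction and 20.7% of families had more than 1 ORF. With at least 30 codons, 201 ORFs were left, median lengths were 58 (all) and 63.5 codons (main), and 45.5% of families had more than 1 ORF. That share was 53.6% with 1 ORF per stop codon and 43.3% with each transcript on its own, which also gave 26.1% single-exon transcripts. With the highest-scoring ORF as main, its median score was 836 and its median length 39 codons. No paired analysis was possible because the list holds no value per library. Footprint depth behind an ORF is unknown, and ORFs scoring under 500, if any, were not analysed here.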

Other observations

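The mitochondrial genome appeared in the list only through an unnamed family. All 3 listed mitochondrial ORFs lie on TCONS_00098592, with 130, 47 and 37 codons and scores of 637, 619 and 562. The family's transcript runs in 1 direction over most of that genome. Mitochondria use another genetic code and their own ribosomes.

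Leaving the mitochondrial genome aside, the share of unnamed families was highest on chromosome 19 (2.60%, 10 families). It was lowest on chromosome 11 (0.584%, 5 families), beside 1.45% over all families. Whether chromosomes differ by more than counting error was not tested. By ORFs, chromosome 6 had 44 and chromosome 4 had 38, of which TCONS_00078548 and TCONS_00065818 hold 19 and 15. Beside TCONS_00046416 and TCONS_00046417, 1689 bases apart, 2 more pairs of unnamed families lay close to each other. CUFF.123130.1 and CUFF.123158.1 on chromosome 6 lay 6087 bases apart on the same strand, and TCONS_00008959 and TCONS_00007393 on chromosome 10 overlapped on opposite strands. Pairs farther apart were not counted, such as CUFF.48463.1 and TCONS_00029244, which both lie between Kctd12 and Irg1.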
